A study of Mus musculus with 10 samples.

Results

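The genes examined are 10 genes of iron uptake, storage, export and sensing: Tfrc, Slc11a2, Steap3, Fth1, Ftl1, Ncoa4, Slc40a1, Ireb2, Aco1 and Fbxl5. They were taken by symbol from a table of 26335 rows, and each of the 10 symbols was found. RNA was sequenced from mSCLC-2405, a line of mouse small cell lung cancer cells from a primary tumor, in 5 control and 5 stiripentol libraries. Cells of both groups were grown in RPMI with 10% serum, and the treatment note of the sample records names stiripentol or DMSO for 48 h. The study's methods give the stiripentol concentration as 250 μM, and stiripentol is an antiseizure drug that inhibits lactate dehydrogenase. All libraries come from 1 line, and the sources used here do not say whether they are separate cultures, so p-values measure only the spread between these libraries.

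Cells take up transferrin-bound iron through the transferrin receptor, reduce it in the endosome and carry it to the cytosol, where the surplus is stored in ferritin or exported by ferroportin. Iron regulatory proteins sense this pool: when iron is scarce they bind hairpins called iron-responsive elements, which blocks translation of mRNAs that carry the hairpin in the 5′ UTR and stabilizes transferrin receptor mRNA, which carries hairpins in the 3′ UTR. Much of this control therefore acts on translation and protein turnover, which RNA levels do not show.

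The hairpins of 4 of the 10 genes are shown because they are the sequence feature that ties these genes to the sensors. A 27-base window was searched for on the transcript strand of GENCODE M21 transcripts (GRCm38). It required the letters CAGTGN in the loop, a C bulge, 5 base pairs above the bulge and at least 3 below it. The window was found in the 5′ UTR of 7 of 20160 genes (0.0347%) and in the 3′ UTR of 35 of 20831 genes (0.168%). In the lines that follow, capitals mark the loop, and each sequence is written 5′ to 3′. The windows of Fth1 (chr19:9982733-9982759, plus strand), Ftl1 (chr7:45459780-45459806, minus strand) and Slc40a1 (chr1:45925466-45925492, minus strand) lie in 5′ UTRs. The 4 windows of Tfrc (plus strand) lie in the 3′ UTR in exon 19, at chr16:32631220-32631246, chr16:32631599-32631625, chr16:32631664-32631690 and chr16:32631711-32631737.
Fth1: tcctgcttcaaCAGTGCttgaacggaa
Ftl1: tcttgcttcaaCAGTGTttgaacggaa
Slc40a1: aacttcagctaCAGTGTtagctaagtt
Tfrc hairpin a: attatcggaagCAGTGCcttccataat
Tfrc hairpin b: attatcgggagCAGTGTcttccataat
Tfrc hairpin c: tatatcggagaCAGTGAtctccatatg
Tfrc hairpin d: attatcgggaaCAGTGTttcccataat
For the other 6 genes no window of these letters was found, which says nothing of looser matches.

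Values are the deposited log2 CPM (a gene's reads divided by the library total and multiplied by a constant, on a log2 scale), so each is a share of a library and not an amount per cell. In bulk RNA, a change in the proportion of cells and a change in RNA per cell cannot be told apart. Whole reads were recovered from the values, with 22375625 to 65299372 reads per control library and 55015760 to 60670901 per stiripentol library. The 10 genes were well covered, from 339 reads of Steap3 to 343911 reads of Ftl1 in a library, and all 10 passed the filter of a mean log2 CPM above 0. Over the whole table, libraries clustered in 2 sets within each group, so that controls 1 to 3 and stiripentol 3 to 5 are called here the set of 3, and controls 4 and 5 and stiripentol 1 and 2 the set of 2. Correlations between libraries across genes were at least 0.983 within a cluster and at most 0.939 between the clusters of a group. The labels do not give these sets, a control cluster was put with the stiripentol cluster of its size, and what the clusters stand for is not given in the sources used here. Genes without reads carry -4.82 in controls 1 to 3 and -4.74 in the other 7 libraries, so 2 normalizations are present and 1 of them covers controls only. Among controls, the clusters and the normalizations coincide and cannot be told apart. Every effect within the set of 3 thus compares libraries of 2 normalizations, and every effect within the set of 2 compares libraries of 1. Because the clusters were found in these same values, the effect within each set is given beside the pooled one.

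Markers of cell type were checked against the line's label. Among 8 neuroendocrine markers, 3 were not listed, and Ncam1 was the only one with a mean log2 CPM above 1 in both groups. Mesenchymal markers were present and 4 of 5 fell with stiripentol (limma), against 14.1% lower of all genes tested. Col1a1 was not called, with a change of 0.86 in the set of 3 and -2.63 in the set of 2. The summed mesenchymal level was 402 to 684 CPM in control and 144 to 182 CPM in stiripentol libraries. Of the macrophage markers, Cd68 rose by 3.21 on the log2 scale (limma adjusted p = 0.000819) while Ptprc had 0 to 3 reads per library and Csf1r 0 to 26, and the summed level of the 3 listed was 4.27 to 18.3 CPM in control and 55.3 to 103 CPM in stiripentol libraries, nearly all of it Cd68. Of the tuft markers, Avil rose by 5.01 (limma adjusted p = 0.000327), while Pou2f3 and Trpm5 were below the filter and lay lower in all stiripentol libraries, with mean log2 CPM of 0.99 and -2.53 in control and stiripentol libraries for Pou2f3. The summed level of the tuft markers was 1.86 to 6.94 CPM in control and 25.1 to 59.7 CPM in stiripentol libraries, in the latter nearly all of it Avil. Epithelial Krt8 fell by 0.36 (limma adjusted p = 0.0202) and Krt18 did not pass. Epcam, with 0 to 1 reads per library, and Cdh1 were below the filter. Cdh1 went the other way, with mean log2 CPM of -1.43 in control and -0.75 in stiripentol libraries. The epithelial sum was 2280 to 2600 CPM in control and 1540 to 2140 CPM in stiripentol libraries, nearly all of it Krt8 and Krt18. The part of these shifts in the results on iron genes was not tested.

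Over the 10 libraries, Slc40a1 and Ireb2 were lower and Fth1 was higher with stiripentol, and the other 7 genes did not pass the test (limma, Benjamini-Hochberg adjusted p under 0.05 over 12306 genes). Thus 2 of 10 genes were lower, against 14.1% of all genes tested, and 1 of 10 was higher, against 13.6%, so neither share is far from the background. The same 3 genes were those whose groups did not overlap. For 2 of 10 all stiripentol libraries lay below all controls, as for 14.3% of all genes tested, and for 1 of 10 all lay above, as for 13.0%. The median change of the 10 genes was 0.13 on the log2 scale, and that of all genes tested was -0.06. With 1 mean per group and set, so that a cluster counts once, none of the 10 passed (limma), and neither did any other gene tested. Of the 10, Slc40a1 alone had an unadjusted p under 0.05 (limma), as did 1116 of the 12306 genes tested. Against the 2 controls of the same normalization as the stiripentol libraries, Slc40a1 was lower by a log2 change of -2.44 (limma adjusted p = 0.0406), while Ireb2 (-0.41, adjusted p = 0.149) and Fth1 (0.25, adjusted p = 0.148) did not pass and Steap3 was higher (0.63, adjusted p = 0.0448). The plot of the genes by library shows the levels behind these counts.

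**Figure D1:**
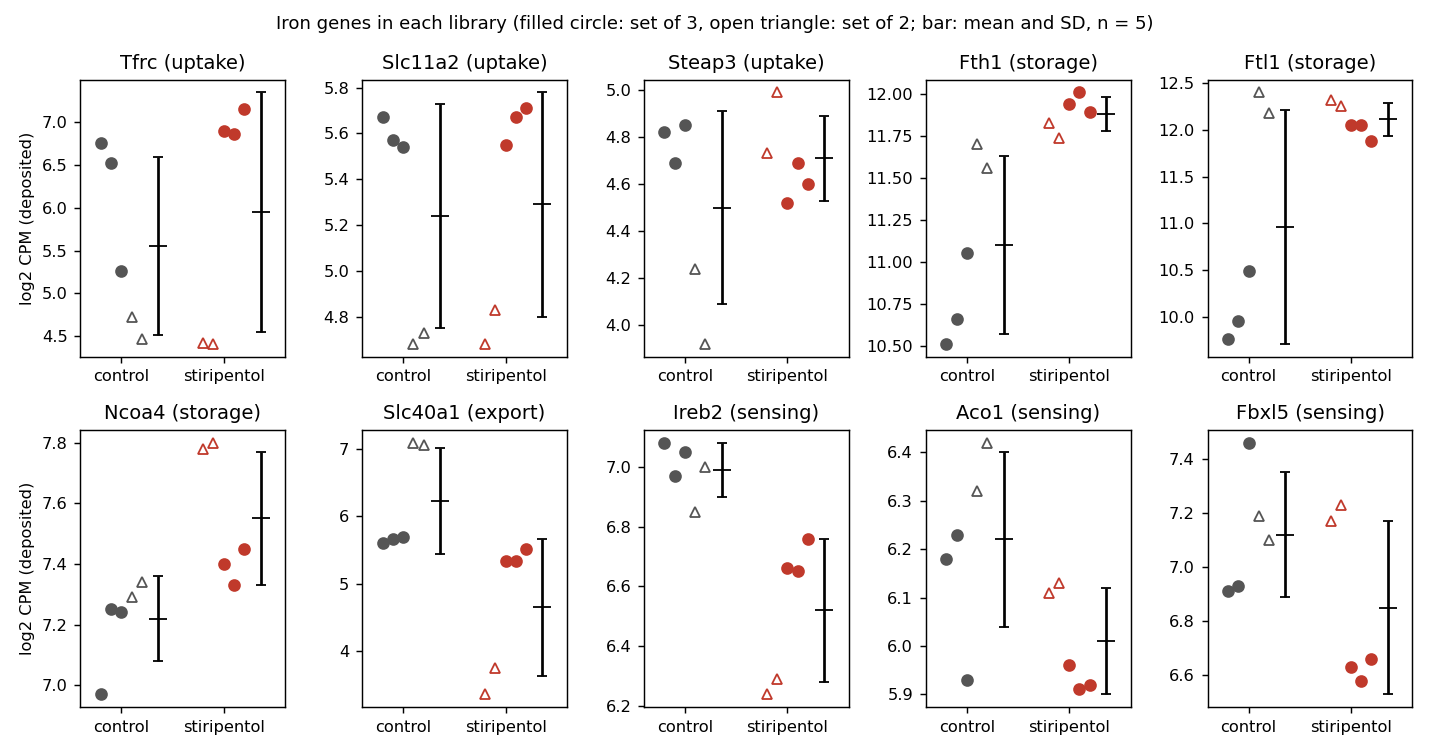
Deposited log2 CPM of the 10 iron genes (y axis, 1 scale per panel, not starting at 0) in control (grey) and stiripentol (red) libraries. Filled circles are libraries of the set of 3, open triangles those of the set of 2, and bars give the mean and SD of 5 libraries. Slc40a1 and Ireb2 lay lower and Fth1 higher in all 5 stiripentol libraries, and Tfrc and Slc11a2 separated the sets rather than the groups.

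Tfrc, the transferrin receptor (GRCm38 chr16:32608920-32632794, plus strand), had log2 CPM of 6.76, 6.53, 5.26, 4.72 and 4.47 in controls 1 to 5. In stiripentol libraries 1 to 5 the values were 4.42, 4.41, 6.90, 6.86 and 7.15. The groups overlapped over nearly their whole range, and the libraries of the set of 2 were the lowest of each group. The log2 change was 0.40 (SE 0.68, limma adjusted p = 0.676). The 3 stiripentol libraries of the set of 3 were above their 3 controls by 0.78 (SE 0.35, limma adjusted p = 0.0815), with control 3 more than 1 log2 unit below controls 1 and 2. In the set of 2 the change was -0.18 (SE 0.13, limma adjusted p = 0.236).

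Slc11a2, the endosomal iron transporter DMT1 (chr15:100387898-100425072, minus strand), had log2 CPM of 5.67, 5.57, 5.54, 4.68 and 4.73 in controls. The stiripentol libraries had 4.68, 4.83, 5.55, 5.67 and 5.71. The set of 2 was lower than the set of 3 by 0.89 in control and by 0.89 in stiripentol means, while the change with stiripentol was 0.05 (SE 0.28, limma adjusted p = 0.909). Within the sets the change was 0.05 as well, with an SE of 0.07 in the set of 3 and 0.12 in the set of 2.

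Steap3, the endosomal reductase that turns ferric into ferrous iron (chr1:120190757-120272705, minus strand), had log2 CPM of 4.82, 4.69, 4.85, 4.24 and 3.92 in controls and 4.73, 4.99, 4.52, 4.69 and 4.60 in stiripentol libraries. Controls 4 and 5 were the lowest of all 10 libraries. The pooled change was 0.20 (SE 0.20, limma adjusted p = 0.455). It was 0.78 in the set of 2 (SE 0.15, limma adjusted p = 0.000703) and -0.18 in the set of 3 (SE 0.08, limma adjusted p = 0.0758), so the direction depended on the set as defined here. With the control clusters crossed between the stiripentol clusters, the differences of the means were 0.52 and 0.08.

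Fth1 encodes the ferritin heavy chain, which oxidizes iron for storage (chr19:9980598-9985098, plus strand). Its log2 CPM was 10.51, 10.66, 11.05, 11.70 and 11.56 in controls and 11.83, 11.74, 11.94, 12.01 and 11.89 in stiripentol libraries. All stiripentol libraries lay above all controls, but stiripentol 2 exceeded control 4 by little. Control libraries averaged 11.10 ± 0.53 (SD, n = 5) and stiripentol libraries 11.88 ± 0.10 (SD, n = 5), a log2 change of 0.79 (SE 0.22, 1.72-fold, limma adjusted p = 0.0260). The rise was 1.20 in the set of 3 (SE 0.14, 2.31-fold, limma adjusted p = 0.000215), whereas the set of 2 had a change of 0.16 (SE 0.10, limma adjusted p = 0.163). The call was lost when control 1, 2 or 3 or stiripentol 4 was left out (limma adjusted p = 0.0519 to 0.0625) and when low genes were not filtered (limma adjusted p = 0.0529).

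Ftl1 encodes the ferritin light chain, which promotes iron mineral formation in the shell (chr7:45457944-45459884, minus strand). Controls had log2 CPM of 9.76, 9.96, 10.49, 12.40 and 12.18, and stiripentol libraries had 12.32, 12.25, 12.05, 12.05 and 11.88. Controls 4 and 5 were at the level of the stiripentol libraries, and controls 1 to 3 were well below it. The pooled change was 1.15 (SE 0.49, limma adjusted p = 0.103) and did not pass the test with all 10 libraries, but it did without control 4 (1.51, limma adjusted p = 0.0281) or without control 5 (1.46, limma adjusted p = 0.0452). In the set of 3 Ftl1 rose by 1.92 on the log2 scale (SE 0.17, 3.79-fold, limma adjusted p = 7.9e-05), and in the set of 2 the change was -0.01 (SE 0.10, limma adjusted p = 0.955). The difference log2 Fth1 minus log2 Ftl1 within a library averaged 0.67 in the set of 3 controls, -0.66 in the set of 2 controls, -0.05 in the set of 3 and -0.50 in the set of 2 of stiripentol libraries, so the balance of the 2 chains' reads shifted more between the control clusters than between the stiripentol clusters.

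Ftl1 shares its sequence with processed copies, and reads can be divided among them. Ftl1-ps1 is 99.6% identical to Ftl1 over 910 bases of transcript, Ftl2 98.7% over 552 bases and Ftl1-ps2 97.8% over 549 bases. Together with 1297698 reads of Ftl1, the stiripentol libraries had 683866 reads of Ftl1-ps1, 317110 of Ftl2 and 12876 of Ftl1-ps2. These rows had the same pattern as Ftl1, with changes of 2.18, 2.19 and 2.42 in the set of 3 and 0.14, 0.11 and -0.15 in the set of 2. With the reads of the copies added to Ftl1, an alternative chosen after seeing the data, the pooled change was 1.24 (limma adjusted p = 0.0976). No such copy of Fth1 was found at 95% identity over 100 bases. Ftl1 also overlaps the antisense gene Gm10252 (mean log2 CPM 4.40), whose reads cannot be told apart without strand.

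**Figure D2:**
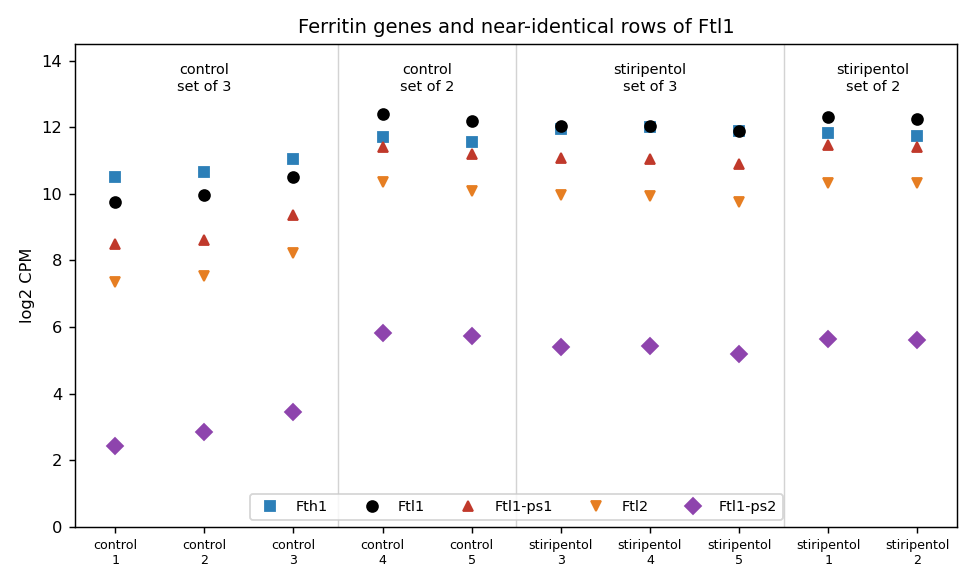
log2 CPM (y axis) of Fth1, Ftl1 and the rows near-identical to Ftl1 in each of the 10 libraries (x axis, ordered by group and set). The Ftl1 rows moved together and were lowest in controls 1 to 3, where Ftl1 was 9.76 to 10.49, against 11.88 to 12.40 in the other libraries.

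Ncoa4, the receptor that takes ferritin to the lysosome for iron release (chr14:32159865-32179855, plus strand), had log2 CPM of 6.97, 7.25, 7.24, 7.29 and 7.34 in controls and 7.78, 7.80, 7.40, 7.33 and 7.45 in stiripentol libraries. The groups overlapped only through the highest control, at 7.34, and the lowest stiripentol library, at 7.33. The change of 0.33 (SE 0.12) did not pass the test (limma adjusted p = 0.0678). Within the sets the rise was 0.24 (SE 0.09, limma adjusted p = 0.0406) in the set of 3 and 0.47 (SE 0.10, limma adjusted p = 0.00104) in the set of 2. Gm6768, 99.9% identical to Ncoa4 over 1878 bases, had 13622 reads in control and 21313 in stiripentol libraries against 40188 and 55195 of Ncoa4, and with its reads added the change was 0.38 (limma adjusted p = 0.0507).

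Slc40a1 encodes ferroportin, the iron exporter of the cell surface (chr1:45908068-45926523, minus strand). Its log2 CPM was 5.61, 5.66, 5.70, 7.10 and 7.07 in controls and 3.35, 3.74, 5.33, 5.33 and 5.51 in stiripentol libraries. No stiripentol library reached the lowest control, and the widest distance was between controls 4 and 5 and stiripentol 1 and 2. Control libraries averaged 6.23 ± 0.79 (SD, n = 5) and stiripentol libraries 4.65 ± 1.02 (SD, n = 5), a log2 change of -1.57 (SE 0.50, 2.98-fold lower, limma adjusted p = 0.0401). In the set of 2 the level fell by 3.54 on the log2 scale (SE 0.14, 11.7-fold lower, limma adjusted p = 1.73e-08), and in the set of 3 it fell by 0.26 (SE 0.07, 1.20-fold lower, limma adjusted p = 0.0137). The contrast between the sets rests on matching clusters by size, since the crossed differences of means were -1.70 (stiripentol set of 3 minus control set of 2) and -2.11 (stiripentol set of 2 minus control set of 3). In reads, the set of 2 had 8745 and 3016 in control and 615 and 774 in stiripentol libraries, of which the 3016 came from the shallowest library. The pooled call was lost in 6 of the 10 fits that left out 1 library, namely control 2, 3, 4 or 5 or stiripentol 1 or 2 (limma adjusted p = 0.0520 to 0.0940), and without the filter on low genes (limma adjusted p = 0.0726).

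Ireb2 encodes iron regulatory protein 2, the sensor that is degraded when iron is plentiful (chr9:54863789-54912530, plus strand). Controls had log2 CPM of 7.08, 6.97, 7.05, 6.85 and 7.00, and stiripentol libraries had 6.24, 6.29, 6.66, 6.65 and 6.76. Every stiripentol library was below every control, and the controls differed little among themselves. Control libraries averaged 6.99 ± 0.09 (SD, n = 5) and stiripentol libraries 6.52 ± 0.24 (SD, n = 5), a fall of 0.47 (SE 0.12, 1.39-fold lower, limma adjusted p = 0.0175). The fall passed the test in both sets, at 0.35 in the set of 3 (SE 0.06, limma adjusted p = 0.00179) and 0.66 in the set of 2 (SE 0.11, limma adjusted p = 0.000192). Of the 10 genes it was the only one called in all 10 fits that left out 1 library (limma adjusted p = 0.0150 to 0.0442). The genes tested whose log2 CPM followed Ireb2 most closely over the 10 libraries were Etv6 (Pearson r = 0.9942), C1galt1 (0.9933), Frmd6 (0.9913), Mecom (0.9913) and Filip1l (0.9907). This is a description only, since the same groups, sets and library depths underlie the values of every gene.

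Aco1 encodes iron regulatory protein 1, which is a cytosolic aconitase when it holds its iron-sulfur cluster (chr4:40143081-40198338, plus strand). Its log2 CPM was 6.18, 6.23, 5.93, 6.32 and 6.42 in controls and 6.11, 6.13, 5.96, 5.91 and 5.92 in stiripentol libraries. The groups overlapped through control 3. The change was -0.21 (SE 0.11, limma adjusted p = 0.183), which passed only with the library set as a term among the alternatives run (limma adjusted p = 0.0370), with -0.18 (SE 0.09, limma adjusted p = 0.0947) in the set of 3 and -0.25 (SE 0.11, limma adjusted p = 0.0518) in the set of 2.

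Fbxl5, the iron-binding subunit of the ubiquitin ligase that degrades the iron regulatory proteins (chr5:43744615-43821638, minus strand), had log2 CPM of 6.91, 6.93, 7.46, 7.19 and 7.10 in controls. The stiripentol libraries had 7.17, 7.23, 6.63, 6.58 and 6.66. Stiripentol 1 and 2 lay within the range of the controls, and stiripentol 3 to 5 lay below it. The pooled change was -0.26 (SE 0.17, limma adjusted p = 0.245). Fbxl5 fell by 0.48 in the set of 3 (SE 0.14, limma adjusted p = 0.0195), and the change was 0.05 in the set of 2 (SE 0.10, limma adjusted p = 0.648). Bst1, with a mean log2 CPM of 3.28, lies antisense to part of this gene.

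Within the set of 3, 3 of the 10 genes were lower (Slc40a1, Ireb2 and Fbxl5) and 3 were higher (Fth1, Ftl1 and Ncoa4), while 27.0% of all genes tested were lower and 37.7% higher. Within the set of 2, 2 were lower (Slc40a1 and Ireb2) and 2 were higher (Ncoa4 and Steap3), against 46.5% lower and 25.7% higher of all genes tested. These within-set tests count the libraries of 1 cluster as replicates. For a single gene, an exact permutation test of 3 libraries against 3 cannot give a p below 0.1, and of 2 against 2 none below 0.333. The median change of all genes tested was 0.08 in the set of 3 and -0.25 in the set of 2, so small changes in the set of 2 are to be read against that shift.

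**Figure D3:**
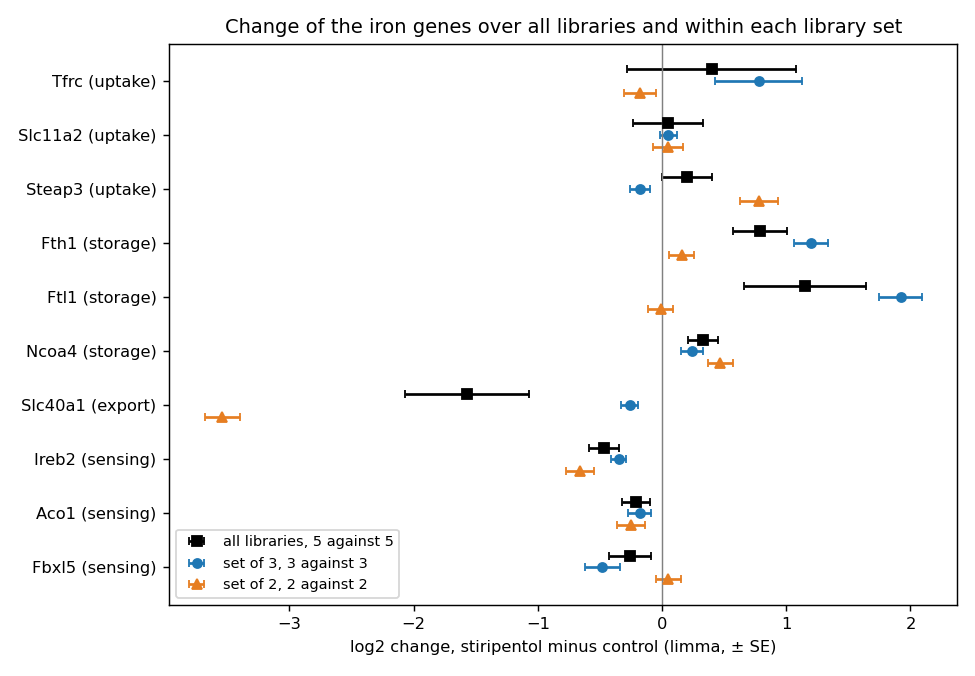
Log2 change with stiripentol (x axis, limma, bars are ± SE) for the 10 iron genes over all libraries (squares), in the set of 3 (circles) and in the set of 2 (triangles). Ireb2 was lower in both sets, the ferritin genes rose in the set of 3 and Slc40a1 fell by 3.54 in the set of 2, clusters being matched by size (its crossed differences of means were -1.70 and -2.11).

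The effect of stiripentol differed between the sets for 6 of the 10 genes (limma, interaction of group and set), against 63.3% of all genes tested. The effect in the set of 2 minus that in the set of 3 was -3.28 for Slc40a1 (limma adjusted p = 1.51e-07) and -1.93 for Ftl1 (adjusted p = 4.86e-05). It was -1.05 for Fth1 (adjusted p = 0.000651), 0.96 for Steap3 (adjusted p = 0.000489), 0.53 for Fbxl5 (adjusted p = 0.0355) and -0.32 for Ireb2 (adjusted p = 0.0247). The median difference of all genes tested was -0.33, the same size as that of Ireb2. After quantile normalization, which brought this median to 0.02, the difference of Ireb2 was -0.19 and no longer passed (limma adjusted p = 0.134), Slc11a2 had a difference of 0.36 and passed (limma adjusted p = 0.0193), and the other 5 kept their direction and call. With the control clusters crossed between the stiripentol clusters, which was also chosen after seeing the data, all 10 genes passed. Most genes tested passed there as well, 5709 of 12306 with a negative and 3138 with a positive difference (limma). Libraries of the control set of 2 correlated across genes more closely with the stiripentol set of 3 (0.9315 to 0.9377) than with the stiripentol set of 2 (0.8805 to 0.9035). Those of the control set of 3 did so too, at 0.9196 to 0.9357 against 0.8402 to 0.8751, the lowest range of all. Both control clusters were thus closer to the same stiripentol cluster. Across 12306 genes, the differences between sets in control and in stiripentol libraries correlated at r = 0.211. Whether the match by size holds was not tested. The crossed differences of means, stiripentol set of 3 minus control set of 2 and then stiripentol set of 2 minus control set of 3, were -0.24 and -0.77 for Ireb2 and 0.32 and 1.05 for Fth1, which kept their direction. They were -0.30 and 2.21 for Ftl1, 2.37 and -1.77 for Tfrc, 0.94 and -0.84 for Slc11a2 and -0.52 and 0.10 for Fbxl5, which had opposite signs. Ncoa4 had 0.08 and 0.64, and Aco1 -0.44 and 0.01.

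Other genes of iron and heme handling were taken from lists of 70 genes, of which 63 were listed and 53 passed the filter. Among these 53, 8 were lower, 7 were higher and 38 were not called (limma), with a median change of -0.09. The shares of all genes tested given above, 14.1% lower and 13.6% higher, are close to these. Of 7 uptake and reduction genes tested, 3 rose and 1 fell, against 13.6% higher and 14.1% lower of all genes tested. Another 5 listed genes of this kind were below the filter. Steap1, a membrane metalloreductase, rose by 1.15 on the log2 scale (SE 0.22, limma adjusted p = 0.00387). Mcoln1, the channel that releases iron from the lysosome, rose by 0.88 (SE 0.21, limma adjusted p = 0.0121), and Snx3, which recycles the transferrin receptor, rose by 0.59 (SE 0.10, limma adjusted p = 0.00296). All 3 lay higher in all stiripentol libraries, as did 13.0% of all genes tested, and rose in both sets. Steap2, another metalloreductase, fell by 0.62 (SE 0.20, limma adjusted p = 0.0400).

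Of 9 genes of iron delivery and ferritin turnover tested, 2 rose and none fell, against 13.6% higher and 14.1% lower of all genes tested. An unadjusted p under 0.05 (limma) was found for 4 of the 9, against 41.7% of all genes tested. Slc25a28, the mitochondrial iron importer mitoferrin 2, rose by 0.48 (SE 0.12, limma adjusted p = 0.0145), and Tax1bp1, an autophagy receptor that takes part in ferritin turnover, rose by 0.37 (SE 0.12, limma adjusted p = 0.0388). Of the 3 FBXL5 ligase partners tested, none was called, and 1 had an unadjusted p under 0.05, a share no higher than that of all genes tested. Among export and systemic genes, Cp, the ferroxidase ceruloplasmin that works with ferroportin, had log2 CPM of 9.79, 9.95, 10.19, 9.20 and 9.36 in controls and 7.73, 7.70, 7.64, 7.62 and 7.75 in stiripentol libraries. All stiripentol libraries were far below all controls and close together, a change of -2.01 (SE 0.18, limma adjusted p = 9.64e-05) that passed in both sets, with -2.31 in the set of 3 and -1.56 in the set of 2. Hfe, which modulates the transferrin receptor and hepcidin signalling, rose by 0.96 (SE 0.26, limma adjusted p = 0.0214). With clusters matched by size, the rise was 1.55 in the set of 3 and 0.08 in the set of 2 (limma interaction adjusted p = 1.48e-05). This contrast rests on that match. Mean log2 CPM of Hfe was 2.01 in the set of 3 and 2.65 in the set of 2 of controls, and 3.56 and 2.73 in those of stiripentol libraries.

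Of 10 genes of heme uptake, export and breakdown and 10 of heme synthesis, 3 fell and none rose. The shares of all genes tested were 14.1% lower and 13.6% higher. In these 2 lists, 2 and 4 genes had an unadjusted p under 0.05 (limma), against 41.7% of all genes tested. Hp, the hemoglobin-binding plasma protein haptoglobin, had 33 to 4593 reads in control and 1 to 9 in stiripentol libraries, with 92 and 33 in controls 4 and 5, and its fitted change of -7.05 (SE 1.19, limma adjusted p = 0.00233) depends on the prior added before the logarithm. Uros and Abcb10, a heme synthesis enzyme and a mitochondrial transporter of the pathway, fell by 0.98 (SE 0.31, limma adjusted p = 0.0400) and 0.86 (SE 0.27, limma adjusted p = 0.0372). With clusters matched by size, each fell more in the set of 2 than in the set of 3 (limma interaction adjusted p = 1.95e-05 and 0.000582). Hmox1, heme oxygenase 1, was not called, at 0.91 (SE 0.68, limma adjusted p = 0.326). Within the sets as defined it rose by 2.40 in the set of 3 (SE 0.29, limma adjusted p = 0.000282) and fell by 1.31 in the set of 2 (SE 0.11, limma adjusted p = 1.15e-06), a difference of -3.70 (limma interaction adjusted p = 1.28e-05). Its values followed the same order of control clusters as Ftl1, with 5.36, 5.58, 6.62, 8.94 and 8.77 in controls and 7.47, 7.63, 8.23, 8.31 and 8.20 in stiripentol libraries.

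Of 5 other tested mRNAs known for an iron-responsive element, 2 were lower and 1 was higher, against 14.1% and 13.6% of all genes tested. The hairpin window described above was not found in the UTRs of these 5, which says nothing of looser matches. Epas1, which encodes the hypoxia-inducible factor HIF-2α, had log2 CPM of 1.10 to 4.06 in control and -1.52 to 0.06 in stiripentol libraries, a change of -3.15 (SE 0.55, limma adjusted p = 0.00276) with -3.25 in the set of 3 and -3.00 in the set of 2. Cdc14a, a phosphatase, fell by 1.45 (SE 0.47, limma adjusted p = 0.0414). Among 6 transcription factors and RNA-binding proteins, Zc3h12a, the endonuclease regnase-1 that cleaves Tfrc mRNA among others, fell by 2.07 (SE 0.47, limma adjusted p = 0.00965), and the other 5 were not called. Of the 14 called genes named here, Steap1, Mcoln1, Snx3, Slc25a28, Cp, Hp, Epas1 and Zc3h12a stayed called in all 10 fits that left out 1 library. Without control 1, 2 or 3 the other 6 were not called, and without stiripentol 1 or 2 all of these 6 except Hfe were not. Control 4 decided Uros, Abcb10 and Cdc14a, control 5 Steap2, Uros and Cdc14a, and stiripentol 5 Tax1bp1 (limma adjusted p up to 0.0926 for Cdc14a among all these fits).

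**Figure D4:**
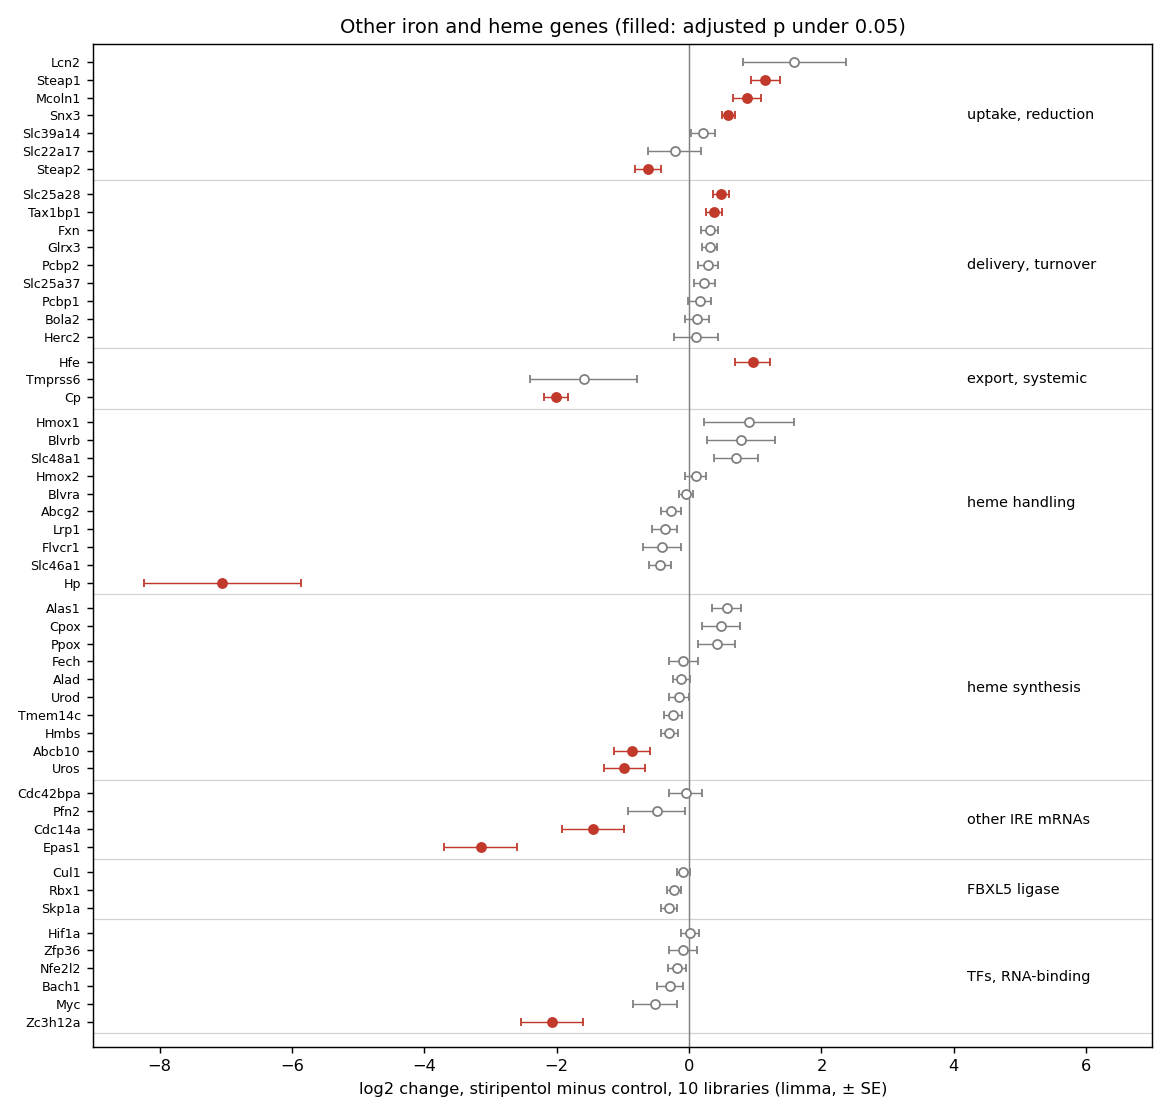
Log2 change with stiripentol (x axis, limma, bars are ± SE) of 52 of the other iron and heme genes that passed the filter, grouped by list. Filled points passed an adjusted p of 0.05, and 8 lie on the lower and 6 on the higher side.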

How the data were processed

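RNA sequencing of 5 control and 5 stiripentol libraries of mSCLC-2405 cells was analysed from 1 table. The deposited values are log2 CPM of each gene in each library, which their methods attribute to GENAVi. Columns of the authors' own comparison (group means, a test, p- and q-values, fold changes) were not used. The submitters' processing notes name the build mm10, and the aligner, counter and annotation are not given in the sources used here. The study's methods name 3′ mRNA (QuantSeq) libraries and the sample records name TruSeq total RNA, so strand use and length dependence are uncertain and levels were compared between libraries, not between genes. Whole reads were recovered from 100% of values (tolerance 0.1 reads), after removal of the prior added before the logarithm.

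Groups were compared on the log2 CPM with limma 3.58.1 in R 4.3.3 (lmFit, eBayes with a trend) over the 12306 genes with mean log2 CPM above 0, with Benjamini-Hochberg adjustment and a threshold of 0.05. Calls refer to this test, and SE is the moderated standard error. The design has no covariate, and fits with the replicate number, with the library set, within sets and with an interaction were alternatives. Library sets came from average-linkage clustering on 1 minus the Pearson correlation. The code was tested on simulated data. Python 3.11.15, numpy 2.4.6, pandas 2.3.3, scipy 1.17.1 and matplotlib 3.10.9 were used. Positions, hairpins and copies (blastn 2.17.0+, at least 95% identity over 100 bases) are from GRCm38 with GENCODE M21.

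The members and lists were chosen with earlier results of these data known. The genes named are the 10 members, the called genes with the 3 lowest and 3 highest changes of each other list, the 5 genes most like the member of lowest adjusted p, and copies of the ferritin genes. Hmox1, Cd68, Avil, Krt8 and the other markers named with values, and Gm6768, Gm10252 and Bst1, fall outside this rule and were named after their values were seen. The results of 2 genes of these lists are not reported here, although the counts over the lists include them.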

Additional observations from a re-analysis of the deposited data

Results flagged for a closer look

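For 6 of the 10 iron genes the effect of stiripentol differed between the 2 library sets (limma, interaction of group and set). The effect in the set of 2 minus that in the set of 3 was -3.28 for Slc40a1, -1.93 for Ftl1, -1.05 for Fth1, -0.32 for Ireb2, 0.53 for Fbxl5 and 0.96 for Steap3, on the log2 scale. Slc40a1 and Ireb2 fell in both sets, and the difference of Ireb2 did not pass after quantile normalization (-0.19, limma adjusted p = 0.134). Of all genes tested, 63.3% passed the same test. What separates the sets was not tested, and among controls the sets coincide with the 2 normalizations.

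Ncoa4 had 1 control far from the other 4, control 1 at a log2 CPM of 6.97. The total of 1 control, control 5, was 22375625 reads, far below the other controls. Of 22 groups of 5 values examined with Dixon's criterion, 2 stood out, and chance alone gives about 1 in 20, or 1.1.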

How the results depend on the processing

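Of the 10 genes, 2 were lower and 1 was higher with all libraries. Leaving out 1 library at a time gave 1 to 2 lower and 0 to 2 higher, and 4 to 8 lower and 4 to 10 higher of the 53 other iron genes (8 and 7 with all libraries). Over all 12306 genes tested, these fits called 1171 to 1802 lower and 1218 to 1706 higher, against 1740 and 1674 with all libraries. With the replicate number as a block, 1 was lower, and 5 and 3 of the other genes were lower and higher. That fit called 1062 of all genes tested lower and 1020 higher. Under the replicate block Slc40a1 and Fth1 remained called and Ireb2 did not (limma adjusted p = 0.0572). After group means were subtracted, a control and a stiripentol library of 1 number had correlations of -0.24 to 0.061 across genes, none over 0.1. These deviations hold the differences between clusters, and every number except 3 (0.061) joins libraries of different sets. The correlations therefore cannot tell whether libraries of 1 number were paired. With the library set as a term 3 were lower (Aco1 was gained, limma adjusted p = 0.0370) and 3 higher, and 14 and 13 of the other genes were lower and higher. The counts over all genes tested rose too, to 3336 lower and 2908 higher. Within the set of 3, 3 were higher, and 15 and 21 of the other genes were lower and higher. Within the set of 2, 2 were higher, and 25 and 11 of the others were lower and higher. Of all genes tested, 27.0% were lower and 37.7% higher in the set of 3, and 46.5% and 25.7% in the set of 2. With 1 mean per group and set, 0 were called in either direction, of the members, of the others and of all genes tested alike. In the libraries of one normalization (2 controls) 1 was lower (Slc40a1) and 1 higher (Steap3, in place of Fth1), and 4 of the others were higher. All genes tested then held 1215 lower and 1249 higher. Without a filter 1 was lower and 0 higher, and 4 of the others were lower, with more genes tested (1747 of 26335 lower and 1705 higher). Crossed sets as a term, chosen after seeing the data, gave 2 higher, and 13 of the others lower. The same fit called 3059 of all genes tested lower and 2281 higher. With the sets crossed, also chosen after seeing the data, 10 of 10 differed between sets, against 6 in the sets as defined (4 to 8 when 1 library was left out). Among all 12306 genes tested, 5709 passed with a negative and 3138 with a positive difference when crossed. In the sets as defined these numbers were 5569 and 2223.

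Directions reversed for genes that were not called over all libraries: in the set of 2 alone for Tfrc (-0.18), Ftl1 (-0.01) and Fbxl5 (0.05), in the set of 3 alone for Steap3 (-0.18), in the libraries of one normalization for Ftl1 (-0.18), and for Slc11a2 in 5 of 10 fits that left out 1 library (-0.09 to 0.20 over all 10). Quantile normalization moved the median of all genes from -0.06 to 0.05 and trimmed mean rescaling to 0.01, and under both, and with limma's voom on the recovered reads, Slc40a1, Ireb2 and Fth1 kept their direction and call. The causes were not tested.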
